A study of Rattus norvegicus with 19 samples.

Results

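Paricalcitol, a synthetic vitamin D analogue that activates the vitamin D receptor, was compared with its absence in left ventricles of male rats of the Dahl salt sensitive (Harlan SS/Hsd) strain, in which a salty diet raises blood pressure and thickens the heart wall. The comparison used the 15 arrays of the 4 groups taken at 15 weeks of age, out of 19 arrays in the series. The 8 arrays with paricalcitol were 4 with paricalcitol alone and 4 with paricalcitol and enalapril (combination), and the 7 without it were 4 with vehicle and 3 with enalapril and vehicle. Each group counted equally, so the main effect is the mean of the paricalcitol and combination groups minus the mean of the vehicle and enalapril groups.

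All of these rats, controls included, ate 6% NaCl from 6 weeks of age, for 5 weeks before treatment and for the 4 weeks of treatment. Paricalcitol was injected at 200 ng, 3 times a week, and groups without it received vehicle (propylene glycol and ethanol) on the same schedule. Enalapril, an inhibitor of angiotensin-converting enzyme, was delivered by an osmotic pump at 90 ug a day, a dose the submitters chose as too low to reduce blood pressure significantly. The vehicle group is not said to have carried a pump. The number blocks in the sample descriptions are separate for each group, and the labels do not say what they number. Whatever goes with these blocks cannot be told apart from treatment. Because nothing in the labels states how the arrays of a group were separated beyond their own numbers, the p-values measure only the spread between these arrays, which may be technical.

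The vitamin D receptor is a nuclear receptor that pairs with a retinoid X receptor on DNA and changes the transcription of nearby genes. Its best known effects concern calcium balance, and in the heart activators of the receptor have been studied for their effect on hypertrophy and on the renin-angiotensin system. Enalapril acts on the latter system at another step, so an effect of paricalcitol that is present at both enalapril levels can be read separately from one that depends on enalapril.

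The arrays gave linear intensities whose medians ran from 43.6 to 72.6, and 16% to 18.2% of values on an array were below 0. Levels below are log2(quantile normalized intensity + 16), on which 4 is the floor, and differences are log2, with minus without paricalcitol, with limma's standard error (SE). The tissue label was checked against 7 measured cardiomyocyte markers, whose mean levels ran from 12.82 (Myh6) to 14.21 (Tnnt2). Replicates 2 and 3 of both paricalcitol groups stood apart by low red cell markers. Their scores, the mean deviation of Ahsp, Hbb, Alas2 and Slc4a1 from each gene's mean over arrays, were -0.64 and -1.11 in the paricalcitol group and -1.10 and -0.95 in the combination group. The other 4 arrays with paricalcitol had 0.37 to 0.62, and the 7 arrays without it had -0.56 to 0.60. Paricalcitol replicate 2, at -0.64, was thus close to the lowest array without paricalcitol.

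No gene passed an adjusted p of 0.05 for the main effect (0 of 14217, 0%), and the smallest adjusted p was 0.0685, for Ecrg4. At an unadjusted p under 0.05 there were 1101 genes (7.74%), 602 higher with paricalcitol (4.23%) and 499 lower (3.51%), and regardless of p 50.1% of genes were higher. Without enalapril 2 genes passed (0.0141%), Ecrg4 and Atp6v1d, and 1369 (9.63%) had an unadjusted p under 0.05, 4.82% of genes higher and 4.81% lower, while 49.4% were higher at any p. With enalapril 0 genes passed and 756 (5.32%) had an unadjusted p under 0.05, 3.04% higher and 2.28% lower, while 49.8% were higher at any p. The test of the difference between both effects passed for 0 genes, with 991 (6.97%) at an unadjusted p under 0.05, 3.83% with a higher and 3.14% with a lower difference with enalapril.

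The genes that moved the same way with and without enalapril were taken as those with an unadjusted p under 0.05 and the same sign in both separate contrasts. These contrasts share no arrays, but they share the estimate of each gene's spread, so their p-values are not independent. Same-numbered arrays of the paricalcitol and combination groups did deviate together (correlations of 0.31 to 0.56). There were 64 such genes (0.45%), 39 higher (0.274%) and 25 lower (0.176%) with paricalcitol. By the same p rule 54 genes (0.38%) had opposite signs, a number of like size. Over all genes regardless of p, 48.5% had the same sign at both levels, 46.7% opposite signs, and 4.71% a difference of exactly 0 at 1 level or more. Across genes, which are not independent replicates, both effects had r = 0.04. Which genes met the same-direction rule depended on scaling. On the deposited values, without equalisation between arrays, 9 higher and 26 lower genes met it, 18 of them among the 64. With each array centred on its median 18 higher and 56 lower genes did, 37 of them among the 64. With cyclic loess 38 higher and 23 lower genes did, 56 of them among the 64. With the replicate number as a block 82 genes had the same direction, 39 of them among the 64. The median main effect of all genes was 0.00 after quantile normalization, -0.03 on the deposited values and -0.03 after centring.

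**Figure D1:**
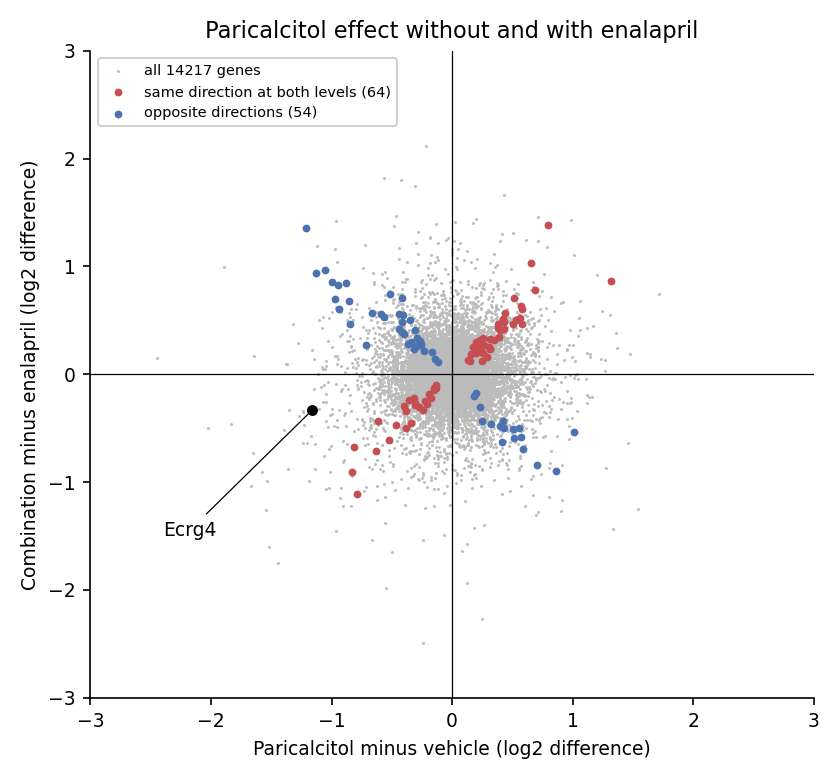
Each point is a gene: the x axis is paricalcitol minus vehicle and the y axis combination minus enalapril, both log2 differences. Red points are the 64 same-direction genes, blue points the 54 with opposite signs and the black point Ecrg4; the red and blue clouds are of like size, and grey points fill all 4 quadrants.

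Ecrg4 encodes a secreted peptide precursor, augurin. Its levels were 6.85, 7.42, 7.24 and 7.31 with vehicle and 5.99, 5.91, 6.42 and 5.85 with paricalcitol. With enalapril they were 6.83, 7.02 and 7.08, and with the combination 6.52, 6.60, 6.62 and 6.82. Every array with paricalcitol was below every array without it. The main effect was -0.75 (SE 0.11, limma adjusted p = 0.0685). Without enalapril Ecrg4 fell by 1.16 (SE 0.15, adjusted p = 0.0138), and with enalapril the difference was -0.34 (SE 0.16), with an unadjusted p of 0.0521 that leaves it outside the 64. The interaction was 0.83 (SE 0.22, adjusted p = 0.416). Ecrg4 passed the main effect test without vehicle replicate 1 (adjusted p = 0.0176) and without paricalcitol replicate 3 (0.0126). Its call without enalapril was lost without vehicle replicate 3 (adjusted p = 0.0785), vehicle replicate 4 (0.0985) or paricalcitol replicate 4 (0.0799), and on the deposited values (0.0543).

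Complete separation of all 8 arrays from all 7 was found for 5 genes (0.0352%): Map4k3, higher (0.00703%), and Ecrg4, Drc3, Chka and Dnah7, lower (0.0281%). Drc3 (-0.25, SE 0.05) and Dnah7 (-0.92, SE 0.25), both parts of motile cilia, were chosen after their values were seen and had unadjusted p above 0.05 with enalapril. Groups did not overlap for 5.06% of genes without enalapril and 4.95% with it. At both levels, they did not overlap in the same direction for 21 genes (0.148%) and in opposite directions for 16 (0.113%), and 9 of the 64 genes were among the former.

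A pair of enzymes that start phospholipid synthesis were lower at both levels. Chka, choline kinase alpha, had 7.68, 7.52, 7.95 and 7.43 with vehicle and 7.24, 6.97, 6.50 and 7.42 with paricalcitol. It had 7.60, 7.66 and 7.70 with enalapril and 7.38, 7.17, 7.02 and 7.31 with the combination. Its lowest array without paricalcitol stood just above its highest with it. The main effect was -0.52 (SE 0.13, adjusted p = 0.365), from -0.62 without and -0.43 with enalapril. Etnk1, ethanolamine kinase, had 9.21, 8.85, 9.21 and 9.17 with vehicle, 8.85, 8.60, 8.82 and 8.81 with paricalcitol, 8.87, 9.62 and 9.16 with enalapril, and 8.75, 8.86, 8.82 and 8.63 with the combination. Vehicle replicate 2 was as low as the highest arrays with paricalcitol, and the other arrays without it were above all 8. Its main effect was -0.40 (SE 0.10, adjusted p = 0.365).

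Among signalling genes Map4k3, a kinase of the stress and nutrient pathways, was higher. It had 8.21, 8.30, 8.32 and 8.21 with vehicle and 8.44, 8.43, 8.52 and 8.64 with paricalcitol. It had 8.21, 8.34 and 8.37 with enalapril and 8.38, 8.47, 8.41 and 8.49 with the combination, a narrow but complete separation. The main effect was 0.19 (SE 0.04, adjusted p = 0.263). A dimmer probe set gave 0.45 without and -0.23 with enalapril. Rgs4, which shortens signals of G protein-coupled receptors, had 7.20, 6.98, 7.08 and 7.63 with vehicle and 7.61, 8.06, 8.01 and 7.81 with paricalcitol, overlapping at vehicle replicate 4. It had 7.17, 6.14 and 6.55 with enalapril and 7.43, 7.89, 7.68 and 7.58 with the combination. Its main effect was 0.84 (SE 0.18, adjusted p = 0.341), a fold of 1.79. Csnk1a1, casein kinase 1 alpha, had a main effect of -0.20 (SE 0.05) on the probe set used, with -0.04, 0.16 and -0.31 on its dimmer ones, and Cic, a transcriptional repressor, higher by 0.42 (SE 0.10).

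In RNA and protein handling, Lsm5, a subunit of the ring that binds U6 spliceosomal RNA, had the smallest p of the 64. It had 8.27, 8.43, 8.28 and 8.36 with vehicle and 8.73, 8.63, 8.58 and 8.65 with paricalcitol. It had 8.48, 8.67 and 8.55 with enalapril and 8.71, 8.94, 8.78 and 8.79 with the combination. Groups did not overlap at either level, while the enalapril arrays reached into the range of paricalcitol alone. The main effect was 0.27 (SE 0.05, adjusted p = 0.198). Rbis, a ribosome biogenesis factor, had 0.25 (SE 0.06). St13, a cochaperone of Hsp70, had -0.12 (SE 0.03), and Gnl1, a GTP-binding protein, -0.47 (SE 0.12). A dimmer probe set of St13 gave -0.22 without and 0.05 with enalapril.

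Secreted and surface proteins were found in both directions. Vtn, the adhesion protein vitronectin, had 7.55, 7.15, 7.28 and 7.11 with vehicle and 7.54, 8.07, 7.91 and 7.59 with paricalcitol, and 7.10, 7.36 and 7.30 with enalapril against 7.37, 8.11, 7.96 and 7.43 with the combination. The highest values were on replicates 2 and 3 of both paricalcitol groups, the arrays with low red cell scores. Its main effect was 0.48 (SE 0.12, adjusted p = 0.365). It was 0.22 without those 4 arrays, 0.75 without the other 4 arrays with paricalcitol and 0.42 with the red cell score as a covariate. C1qtnf1 (0.40, SE 0.10) and Olfml2a (0.73, SE 0.17), both secreted, were higher. Olfml2a had group means of 5.13 with vehicle, 5.82 with paricalcitol, 5.23 with enalapril and 6.01 with the combination. Only the last reached 6, the level required of the leading genes. Cpxm2, a secreted carboxypeptidase-like protein, was lower at -0.44 (SE 0.12). Magt1, a membrane protein of magnesium transport and glycosylation, had 8.53, 8.50, 8.38 and 8.59 with vehicle, 8.10, 8.16, 8.36 and 7.95 with paricalcitol, 8.23, 8.46 and 8.51 with enalapril, and 8.13, 8.35, 8.17 and 7.99 with the combination. It did not overlap without enalapril and overlapped with it, and its main effect was -0.30 (SE 0.07, adjusted p = 0.365). Nkain1, a partner of the sodium pump, had -0.35 (SE 0.08).

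The other named genes of the 64 with a highest group mean of at least 6 were Wbp1 (0.21, SE 0.04), Sdsl (1.09, SE 0.27) and Sypl1 (0.13, SE 0.03), which were higher. Sdsl reached that level only with paricalcitol alone, at a mean of 6.07 against 4.75 with vehicle, 4.71 with enalapril and 5.57 with the combination. Jpt1 (-0.27, SE 0.07), Sestd1 (-0.29, SE 0.08), Sec14l1 (-0.29, SE 0.08) and Desi2 (-0.14, SE 0.04) were lower. A dimmer probe set of Desi2 gave -0.26 without and 0.09 with enalapril. Of the 64, 54 reached a highest group mean of 6, 33 higher and 21 lower, against 35 of the 54 genes with opposite signs. Among all 14217 genes, 9831 reached it. Main effects of the 64 ran in size from 0.117 to 1.09, with a median of 0.31. Npy4r, a receptor of pancreatic polypeptide, stayed below that level and was chosen after its values were seen; it had 1.09 (SE 0.20, adjusted p = 0.24). Apoe, a lipid carrier also chosen after its values were seen, had 0.60 (SE 0.17, adjusted p = 0.38).

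**Figure D2:**
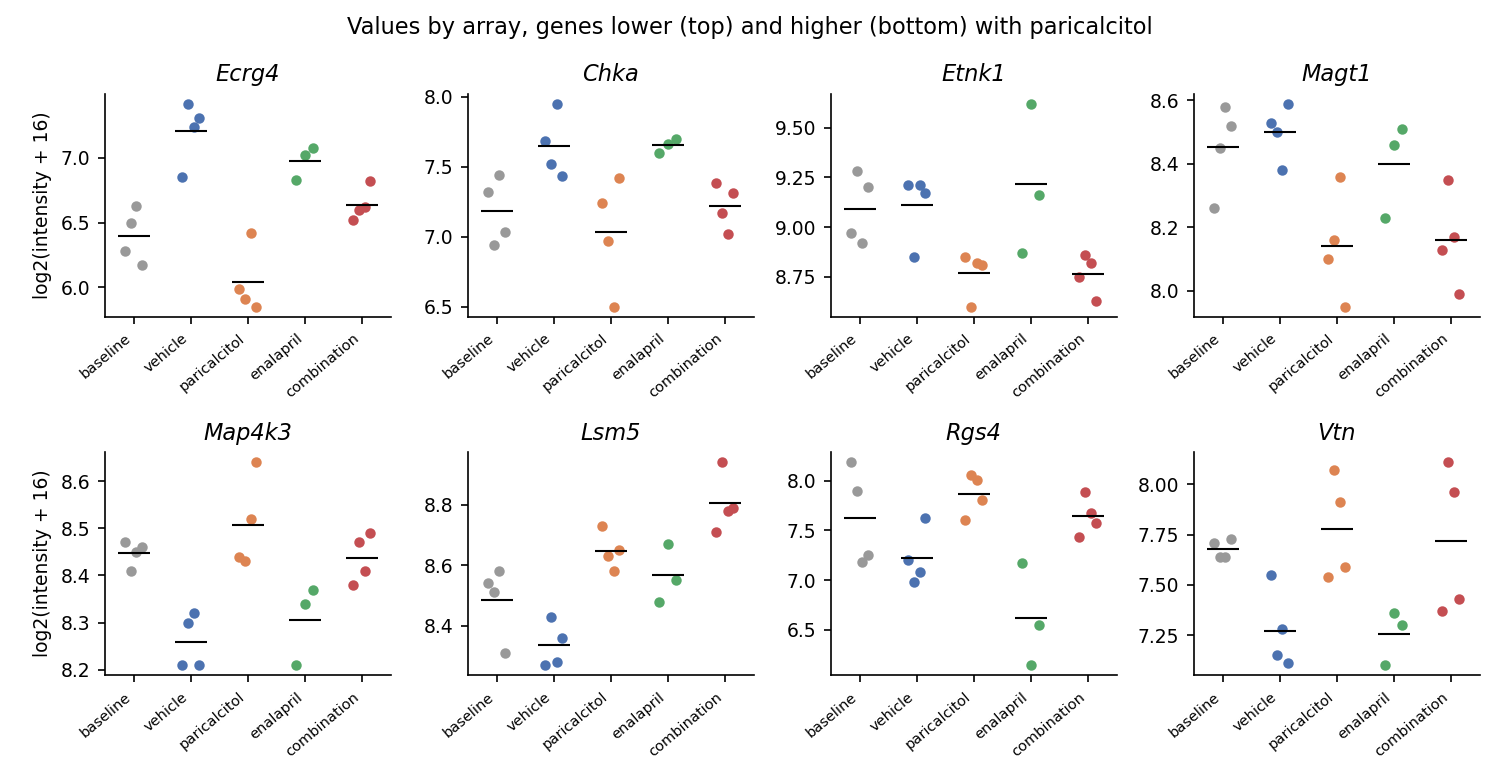
Each point is an array, the bar is the group mean and the y axis is log2(intensity + 16) on a separate scale per gene, with baseline (11 weeks of age) in grey. Ecrg4, Chka, Etnk1 and Magt1 in the top row have lower means in both paricalcitol groups, and Map4k3, Lsm5, Rgs4 and Vtn in the bottom row higher means.

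Promoters are shown for leading genes because the receptor acts through DNA: Lsm5 and Map4k3 (higher), Chka and Ecrg4 (lower). Each is the 250 bases before the RefSeq start on GRCr8, read on the gene's strand. Capitals mark half-sites of the receptor on either strand, in the 4 spellings whose shares are given after the sequences; matches may overlap.
Lsm5 (chr4:87284477-87284726, minus strand): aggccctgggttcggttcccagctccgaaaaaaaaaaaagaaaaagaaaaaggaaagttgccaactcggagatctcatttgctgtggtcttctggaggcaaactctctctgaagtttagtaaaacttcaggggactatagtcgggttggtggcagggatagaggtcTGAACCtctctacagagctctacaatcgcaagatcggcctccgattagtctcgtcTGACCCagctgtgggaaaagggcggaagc
Map4k3 (chr6:20029147-20029396, plus strand): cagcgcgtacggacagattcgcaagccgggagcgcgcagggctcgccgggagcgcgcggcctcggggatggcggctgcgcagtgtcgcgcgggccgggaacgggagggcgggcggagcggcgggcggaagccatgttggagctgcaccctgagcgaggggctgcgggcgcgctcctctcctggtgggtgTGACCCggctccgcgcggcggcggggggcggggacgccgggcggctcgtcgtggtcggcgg
Chka (chr1:210505865-210506114, plus strand): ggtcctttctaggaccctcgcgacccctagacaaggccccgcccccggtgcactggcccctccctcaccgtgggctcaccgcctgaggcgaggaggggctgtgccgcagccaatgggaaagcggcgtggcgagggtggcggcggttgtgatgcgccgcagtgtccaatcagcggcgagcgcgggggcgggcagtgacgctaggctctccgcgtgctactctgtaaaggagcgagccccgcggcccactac
Ecrg4 (chr9:53484790-53485039, plus strand): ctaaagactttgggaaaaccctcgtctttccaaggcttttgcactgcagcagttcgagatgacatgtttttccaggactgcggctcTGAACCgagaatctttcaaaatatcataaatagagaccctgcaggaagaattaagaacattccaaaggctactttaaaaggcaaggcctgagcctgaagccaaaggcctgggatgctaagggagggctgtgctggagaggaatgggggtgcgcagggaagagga
Lsm5 held 2 half-sites, Map4k3 1, Ecrg4 1 and Chka 0. In windows of 300 bases, with 50 after the start, 19 of the 54 same-direction genes with a promoter held at least 1 of the 4 (35.2%), against 4505 of 11700 genes (38.5%). Singly, AGGTCA was in 14.8% against 12.7%, GGTTCA in 7.41% against 9.97%, AGTTCA in 5.56% against 10.3%, and GGGTCA in 16.7% against 14.2%. The full DR3 element was in 0 of the 54 and in 0.094% of all. A match describes letters in this window only.

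Of 34 measured vitamin D receptor and target genes, 18 were higher and 16 lower by the main effect, with a median of 0.02 against 0.00 over all genes. In this list 1 member had an unadjusted p under 0.05, a smaller share than the 7.74% of all genes. That member was Thbd, thrombomodulin, an anticoagulant receptor of endothelium, with 0.18 (SE 0.06, adjusted p = 0.408). It had 9.31, 9.45, 9.65 and 9.42 with vehicle and 9.54, 9.56, 9.70 and 9.55 with paricalcitol, and 9.46, 9.27 and 9.45 with enalapril against 9.59, 9.73, 9.71 and 9.47 with the combination. The groups overlapped at vehicle replicate 3 alone without enalapril and were just apart with it. Vdr, the receptor itself, had 0.04 (SE 0.15), its partner Rxra -0.33 (SE 0.24), the activating enzyme Cyp27b1 -0.13 (SE 0.15) and the phosphate hormone Fgf23 -0.19 (SE 0.24). With 1 array left out, Rxra ran from -0.44 to -0.12, Cyp27b1 from -0.28 to -0.03, Fgf23 from -0.38 to -0.01 and Vdr from -0.06 to 0.13. The coactivator Ncoa3 had 0.25 (SE 0.12), the cell cycle inhibitor Cdkn1b 0.18 (SE 0.09) and the growth factor carrier Igfbp3 0.44 (SE 0.25). A dimmer probe set of Ncoa3 gave -0.21 without and -0.19 with enalapril, and that of Cdkn1b -0.39 and 0.88. Cyp24a1 is not analysed here.

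In the renin-angiotensin and kinin list 12 of 20 members were higher and 8 lower, with a median of 0.04, and 3 higher and 1 lower had an unadjusted p under 0.05 (4.23% and 3.51% of all genes). Without combination replicate 4 that median was 0.00. Anpep and Enpep, aminopeptidases that shorten angiotensins, had 0.69 (SE 0.16, adjusted p = 0.365) and 0.28 (SE 0.08, adjusted p = 0.365). Enpep, 1 of the 64, had 8.39, 8.31, 8.47 and 8.66 with vehicle, 8.56, 8.59, 8.71 and 8.89 with paricalcitol, 8.37, 8.32 and 8.42 with enalapril, and 8.47, 8.76, 8.87 and 8.67 with the combination. Its groups overlapped without enalapril and not with it, and a second, dimmer probe set gave -0.01. Mas1, the receptor of angiotensin fragments, had 0.65 (SE 0.21) close to the floor. Ace, the target of enalapril, had -0.47 (SE 0.21, adjusted p = 0.629), and -0.04 without the 4 low red cell arrays against -0.90 without the other 4 arrays with paricalcitol. Agtr1a had 0.06 (SE 0.16), and Agt was at the floor on 13 of the 15 arrays.

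Of 25 measured proteasome subunits, 23 were higher and 2 lower, 11 of them higher at an unadjusted p under 0.05 (4.23% of all genes), and 20 were higher at both enalapril levels. The median was 0.08, but it was -0.02 with 12 higher on the deposited values and -0.01 with 12 higher after centring, and 0.08 with 23 higher under cyclic loess. The proteasome degrades ubiquitin-tagged proteins. Psmc3, an ATPase of its regulatory cap and 1 of the 64, had 9.42, 9.42, 9.31 and 9.41 with vehicle, 9.58, 9.76, 9.67 and 9.72 with paricalcitol, 9.51, 9.46 and 9.28 with enalapril, and 9.61, 9.67, 9.63 and 9.40 with the combination. Groups did not overlap without enalapril and overlapped at combination replicate 4 with it. Its main effect was 0.23 (SE 0.05, adjusted p = 0.358). Psmb3 had 0.19 (SE 0.05), Psma1 0.14 (SE 0.04) and Psmc4 0.14 (SE 0.05), the last with 0.28 without enalapril and 0.00 with it. Proteasome scores of the vehicle arrays were -0.117 to -0.041, below all those of paricalcitol alone (0.014 to 0.091). The enalapril arrays had -0.085 to 0.002, and the combination arrays 0.000 to 0.078, which overlap. Without the 4 low red cell arrays the median was 0.09 with 20 of 25 higher.

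**Figure D3:**
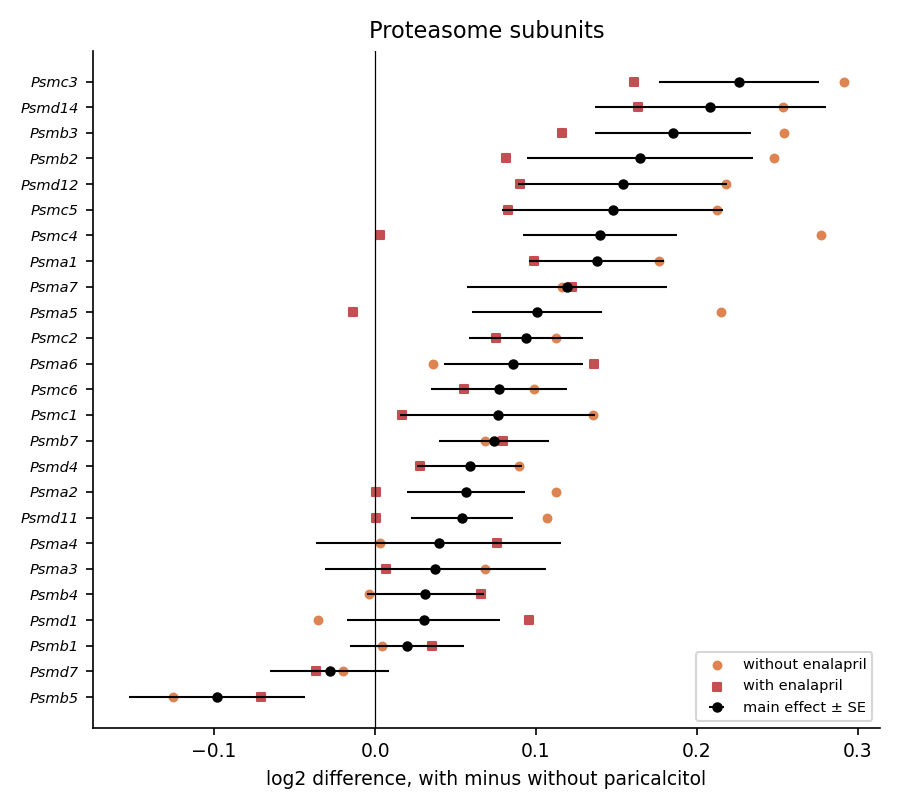
Log2 differences of 25 proteasome subunits, with minus without paricalcitol: black points with bars are the main effect and its SE, orange points the effect without enalapril and red squares that with it. All but Psmb5 and Psmd7 have main effects above 0 after quantile normalization, while 12 of 25 do on the deposited values.

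Endothelial markers had a median of 0.21, with 4 of 7 higher. Emcn, a surface sialoprotein, had 0.46 (SE 0.12, adjusted p = 0.365), and the receptor kinases Tek and Tie1 had 0.21 (SE 0.06) and 0.36 (SE 0.15). Pecam1, an adhesion molecule, had 0.24 (SE 0.12). The remaining 3 were lower, and all 7 were higher without enalapril against 4 of 7 with it. In bulk tissue fewer cells of a type and less RNA per cell cannot be told apart.

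Smooth muscle and pericyte markers were higher without enalapril in 8 of 8, with a median of 0.39, and lower with it in 8 of 8, with a median of -0.23. Their score was 0.337 on enalapril replicate 1 and -0.093 and -0.063 on the other enalapril arrays, against -0.351 to -0.104 with the combination. Kcnj8, a potassium channel subunit of pericytes, had 0.56 and -0.04, and Acta2, smooth muscle actin, 0.53 and -0.12. Pdgfrb, a growth factor receptor, had 0.42 and -0.12. T cell markers were higher in 5 of 8 without enalapril and lower in 8 of 8 with it, at mean levels of 4.5 to 6.6. Macrophage markers had medians of 0.12 and -0.22, and red cell markers -0.16 and -0.20. These lists share the array groups given above, and 0 interaction tests passed over all genes.

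Fatty acid uptake and oxidation genes were higher in 22 of 30, with a median of 0.09, and 4 were higher at an unadjusted p under 0.05 (4.23% of all genes). Acaa2, the last enzyme of mitochondrial beta-oxidation, had 0.35 (SE 0.13), Hadha 0.19 (SE 0.08) and Decr1 0.21 (SE 0.09). The scores were 0.260, 0.243, 0.425 and 0.240 on the 4 low red cell arrays and -0.243 to -0.078 on the other arrays with paricalcitol. Without those 4 arrays the median was -0.09, with 7 of 30 higher. It was 0.29 without the other 4 arrays with paricalcitol, 0.04 with the red cell score as a covariate and 0.02 on the deposited values. Leaving out paricalcitol replicate 2 alone gave 0.05, and combination replicate 2 alone 0.05. MHC class II genes, which present antigen, were higher in 7 of 9, with a median of 0.36, and 0 of the 9 had an unadjusted p under 0.05 (7.74% of all genes). The median was 0.04 without the 4 arrays, 0.65 without the other 4 and 0.23 with the covariate. RT1-Da had 0.41 (SE 0.22).

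Immediate early genes, transcribed within minutes of stimulation, were lower in 19 of 23, with a median of -0.27, and 3 were lower at an unadjusted p under 0.05 (3.51% of all genes). The levels differed: 12 were lower without enalapril, with a median of -0.04, and 22 with it, with a median of -0.55. Nr4a3 had -1.09 (SE 0.43; -0.09 and -0.58 on its dimmer probe sets), Ccn1 -0.48 (SE 0.19), Nr4a1 -0.63 (SE 0.26) and Fos -0.97 (SE 0.52). The score was 0.99 on enalapril replicate 2, against -0.26 and 0.08 on the other enalapril arrays, and without that array the median was -0.11. Vesicular proton pump subunits were lower in 15 of 19, with a median of -0.07. Atp6v1d, a stalk subunit, fell by 0.28 (SE 0.04, adjusted p = 0.0369) without enalapril and had -0.03 with it. That call of Atp6v1d was lost with 1 array left out for 5 of 15 arrays (vehicle replicates 2, 3 and 4 and paricalcitol replicates 3 and 4), with adjusted p up to 0.153. It was also lost on the deposited values (0.874), with cyclic loess (0.0614), without a variance trend (0.052) and with the 15-week arrays alone (0.102). Atp6v0e2 had -0.71 and 0.27. Without paricalcitol replicate 4 that list's median was -0.04. Interferon-stimulated genes were lower in 15 of 20, with a median of -0.16, and -0.07 without combination replicate 1; Irf7 had -0.49 (SE 0.16), Stat2 -0.20 (SE 0.07) and Irf1 0.25 (SE 0.08).

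**Figure D4:**
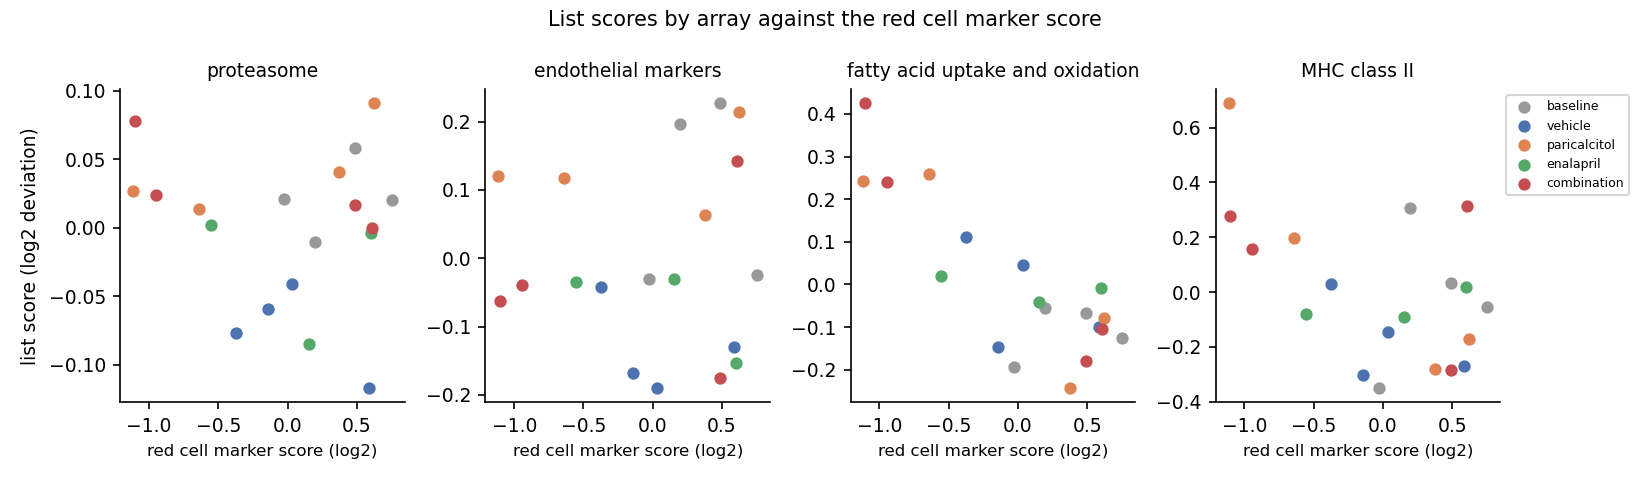
Each point is an array, coloured by group: the x axis is the red cell marker score and the y axis the score of the named list, both log2 deviations from the mean over arrays. Fatty acid scores are highest on the 4 low red cell arrays of the paricalcitol groups. MHC class II scores are high there, on combination replicate 4 and on baseline replicate 1. Proteasome scores with paricalcitol alone lie above all vehicle arrays at any red cell score.

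Heart muscle genes gave few differences. Myh6, the fast alpha myosin heavy chain, had 11.36, 13.04, 11.75 and 12.10 with vehicle and 12.04, 13.38, 13.63 and 13.16 with paricalcitol, and 13.26, 12.14 and 11.47 with enalapril against 13.73, 14.02, 13.73 and 13.41 with the combination. It was separate with enalapril and overlapped without, and its main effect was 1.21 (SE 0.36, adjusted p = 0.382). Myh7 had -0.01 (SE 0.05), Acta1 0.02 (SE 0.03) and Atp2a2 0.01 (SE 0.04), all near the top of the scale, where quantile normalization leaves little room, and their signs changed with the scaling. The natriuretic peptide genes Nppa and Nppb had -0.10 (SE 0.05) and -0.26 (SE 0.16), and the clearance receptor Npr3 -0.73 (SE 0.32). Npr3 did not move the same way at both levels, with -1.64 without and 0.17 with enalapril. Its mean level was 4.81, near the floor. Casq2, the calcium store protein, had -0.13 (SE 0.05), and Prkcb 0.06 (SE 0.11).

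Collagens and matrix genes had 18 of 38 higher, with medians of 0.10 without and -0.15 with enalapril. Col1a1 had 0.17 (SE 0.27), Col3a1 0.11 (SE 0.20), Sparc -0.16 (SE 0.06; 0.06 on a probe set of nearly equal brightness), Fmod -0.26 (SE 0.09), Mmp14 0.25 (SE 0.12) and Ccn2 -0.58 (SE 0.27). TGF-beta genes were higher in 8 of 21 and lower in 13, with a median of -0.10. Of them Ltbp1, a latency protein and 1 of the 64, had 0.33 (SE 0.09), Tgfb3 0.27 (SE 0.08) and Bmp6 -0.27 (SE 0.12). The chemokine Cxcl12 had 0.47 (SE 0.11), the cytokine Il1b -0.49 (SE 0.21), and the complement genes Cfd and Serping1 0.52 (SE 0.22) and -0.26 (SE 0.12). The complement list had 3 of 14 higher and 11 lower, with a median of -0.11. Its members were higher in 9 and lower in 4 without enalapril, and higher in 1 and lower in 13 with it. Among metabolic and stress genes, Hif1a had 0.28 (SE 0.10), Ddit4 0.46 (SE 0.21), Pfkfb2 0.73 (SE 0.28; 0.15 to 0.19 on its 3 dimmer probe sets), Pdhb 0.17 (SE 0.07), Prdx5 0.14 (SE 0.06) and Prdx6 -0.15 (SE 0.05). The clock genes Bhlhe41 and Rora had 0.30 (SE 0.11) and -0.46 (SE 0.19). Insig1 and Insig2, which restrain sterol synthesis, each had -0.14 (SE 0.06). The sterol synthesis list went the other way, with 13 of 21 higher, 8 lower and a median of 0.10. Its members were higher in 10 and lower in 10 without enalapril, and higher in 17 and lower in 4 with it. Of genes tied to calcium signalling, Atp2b1, a calcium pump, had 0.23 (SE 0.09) and Nfatc4 0.16 (SE 0.07), and both were below 0 with the mean of all their probe sets. Of the red cell markers, Ahsp had -0.66 (SE 0.44) and Hbb -0.11 (SE 0.10).

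**Figure D5:**
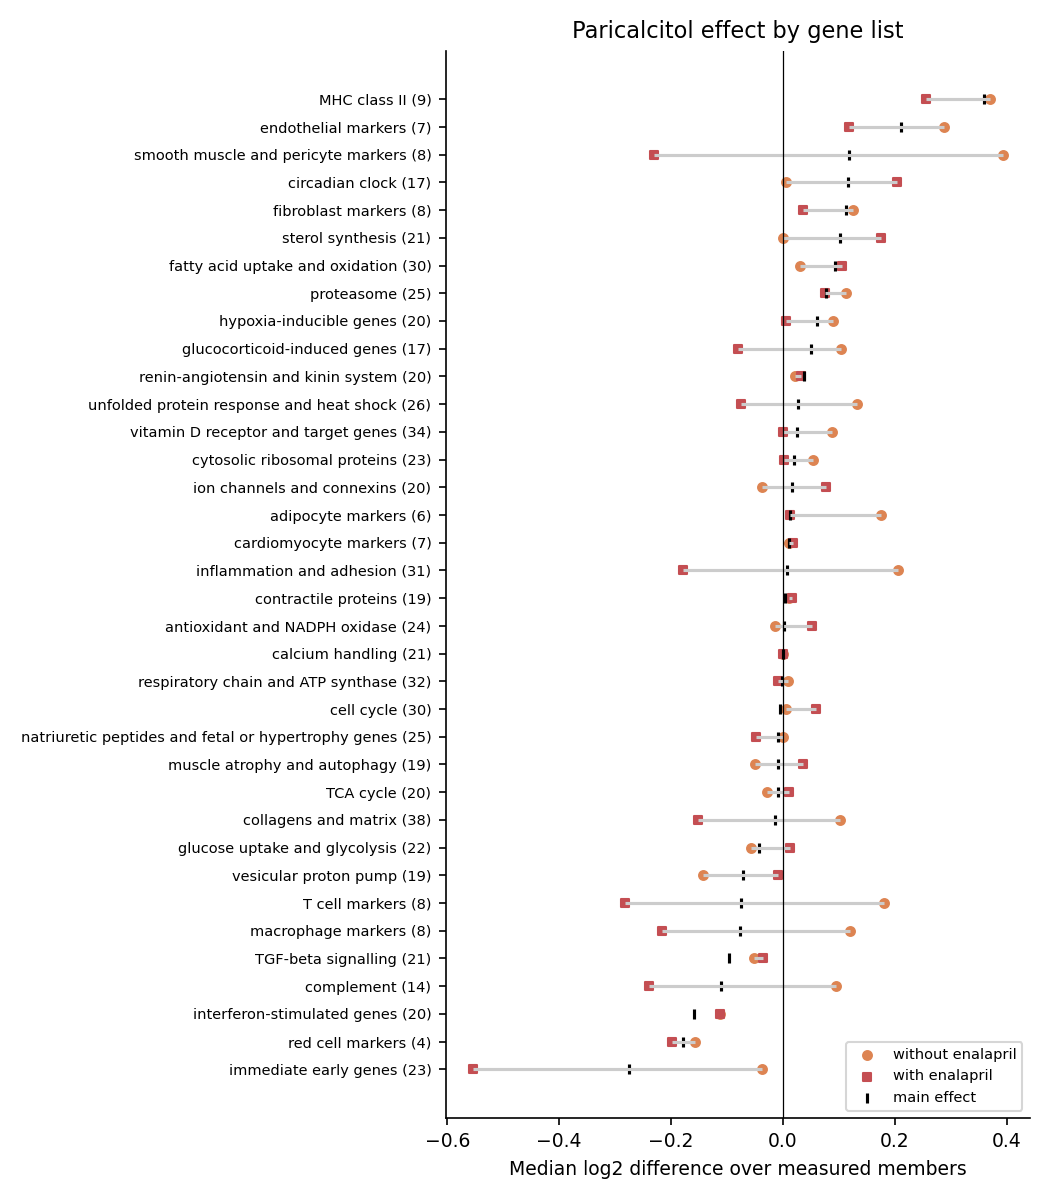
Median log2 difference of each of 36 gene lists, with the number of measured members in brackets, without enalapril (orange), with it (red) and for the main effect (black tick). For the main effect MHC class II is the highest at 0.36 and immediate early genes the lowest at -0.27, while smooth muscle markers have opposite signs at both levels.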

How the data were processed

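Left ventricle RNA was measured on 19 Affymetrix arrays. The authors deposited linear intensities for each probe set, made with tools not given in the sources used here; 16% to 18.2% were below 0, and array medians differed. Of 31099 probe sets, 57 were controls, 20826 named 1 gene, 436 several and 9780 none, by the platform annotation. All arrays were brought to common quantiles, negative values were raised to 0, 16 was added and log2 taken, and each of 14217 genes kept its probe set with the highest mean. Quantile normalization nearly fixes the brightest transcripts. limma 3.58.1 (R 4.3.3) fitted group means over all 19 arrays with eBayes and a variance trend, with Benjamini-Hochberg adjustment over all genes; the procedure was tested on simulated data. No replicate block was used. The number of arrays limits the precision.

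The 36 gene lists (28 of pathways, 8 of cell markers, 704 of 780 entries measured) and the members were chosen with earlier results of these data known. Named genes were, per direction, the 12 same-direction genes with the smallest p and a highest group mean of at least 6, up to 4 members per list, and a panel. That rule gave 177 genes; those printed were selected from them after their values were seen. Probe sets were named through gene IDs, of which 20758 matched RefSeq and 68 did not. Alternatives changed the scaling, pseudocount, probe set rule, filter, model and arrays.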

Additional observations from a re-analysis of the deposited data

Results flagged for a closer look

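Of 323 sets of 4 arrays examined, 21 held 1 array far from the other 3, where chance alone gives about 1 in 20. Values are log2 levels unless stated, and no cause was tested. On vehicle replicate 3, Psmc3 at 9.31 (others 9.41 to 9.42) and Myh7 at 14.05 (others 14.12 to 14.14) stood apart. On vehicle replicate 2, Etnk1 at 8.85 (others 9.17 to 9.21), Agt at 4.33 (others all 4) and Psmb3 at 10.17 (others 10.31 to 10.33) stood apart. The same array had an immediate early gene score of 0.243 (others -0.14 to -0.09). On combination replicate 4, Csnk1a1 at 11.01 (others 11.08 to 11.1), Cxcl12 at 11.37 (others 11.06 to 11.08) and Insig1 at 8.84 (others 8.99 to 9.01) stood apart. On paricalcitol replicate 2, Agt at 4.03 (others all 4) stood apart. On vehicle replicate 1, Nppa at 14.39 (others all 14.42), Mas1 at 4.18 (others all 4) and Ddit4 at 9.15 (others 9.87 to 9.99) stood apart. The same array had Atp6v0e2 at 8.7 (others 9.01 to 9.05) and Atp2b1 at 8.51 (others 9.15 to 9.26). On paricalcitol replicate 3, Thbd at 9.7 (others 9.54 to 9.56) and Ddit4 at 10.99 (others 9.77 to 9.85) stood apart. On combination replicate 1, Pecam1 at 8.79 (others 9.32 to 9.42), Stat2 at 7.64 (others 7.96 to 7.99) and Pfkfb2 at 6.63 (others 8.51 to 8.71) stood apart. On combination replicate 3, Irf1 at 8.33 (others 7.97 to 8.03) stood apart.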

How the results depend on the processing

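The main effect passed for 0 genes under most alternatives, and for 1 (Ecrg4, adjusted p = 0.0475) without a variance trend. With 1 array left out, 0 to 2 genes passed: Ecrg4 without vehicle replicate 1 or paricalcitol replicate 3, Slit1 without paricalcitol replicate 2, Mov10l1 and Nell2 without enalapril replicate 2, and Cuzd1 without combination replicate 2. The paricalcitol effect without enalapril passed for 2 genes and for 0 to 10 with 1 array left out, with 0 without vehicle replicate 3 or 4 or paricalcitol replicate 4 and 10 without paricalcitol replicate 1. It passed for 1 on the deposited values (Crygs, higher, so neither Ecrg4 nor Atp6v1d), 71 after median centring, 1 with cyclic loess and 1 without a trend (Ecrg4 in both), 9 among genes above the median level and 4 with every probe set tested singly. The effect with enalapril passed for 0 to 2 genes with 1 array left out and for 1 with a pseudocount of 4, and the interaction for 0 to 2 with 1 array left out and for 1 on the deposited values. The 64 same-direction genes became 35 on the deposited values and 37 among genes above the median level, and 44 to 89 with 1 array left out. Of the 64, 18 were shared with the deposited values, 37 with centring and 56 with loess. The cause was not tested.

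Same-numbered arrays of paricalcitol and combination had correlations all above 0.1 (0.31 to 0.56), which held for none of the other 5 pairs of groups. Vehicle with paricalcitol had -0.13 to 0.36, vehicle with combination -0.09 to 0.34 and enalapril with combination -0.13 to 0.06. Arrays of different numbers were not compared, so pairing by number was not tested. With a replicate block the main effect passed for 0 genes, the effect without enalapril for 14, the interaction for 1, and 82 genes had the same direction, 39 of them among the 64.

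A pair of settings was added after seeing the data, each leaving out 2 arrays of each of both paricalcitol groups by their red cell score. The arrays were picked by a measured value, in treated groups only, so these counts are not comparable with the others and support no call. Without replicates 2 and 3 (low scores) 31 genes passed the main effect, 64 without enalapril and 6 with it, and 194 had the same direction, 18 of them among the 64. Without replicates 1 and 4 (high scores) 820 passed the main effect, 74 and 75 at the separate levels and 3 the interaction, and 714 had the same direction, 29 of them among the 64. Without the low arrays main effects changed sign for Vdr (-0.1751), Agtr1a (-0.1612), Nppa (0.0013), Nppb (0.0113), Myh7 (0.0405), Atp2a2 (-0.0396), Col3a1 (-0.036), Prkcb (-0.0045), Fgf23 (0.1377), Ccn2 (0.0013), Ahsp (0.2419), Hbb (0.103) and Bmp6 (0.0031).

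Of 102 named genes, 83 kept their sign under all 16 alternatives and 15 omissions. Signs also changed for Acta1 (-0.0506) and Atp2a2 (-0.0601) on the deposited values, Acta1 (-0.0431) and Atp2a2 (-0.0526) after centring, and Myh7 (0.0407) with loess. With the red cell score as a covariate, Vdr had -0.0095, Agtr1a had -0.0224 and Atp2a2 had -0.0086. With the mean of all probe sets, Myh7 had 0.004, Atp2a2 had -0.0107, Prkcb had -0.0294, Atp2b1 had -0.0235, Pdgfrb had -0.0345 and Nfatc4 had -0.0103. With 1 array left out the ranges were Agt -0.0518 to 0.0039, Agtr1a -0.042 to 0.1365, Atp2a2 -0.0119 to 0.0225, Col1a1 -0.0061 to 0.2986, Col3a1 -0.0204 to 0.1927, Myh7 -0.0345 to 0.0093, Prkcb -0.0253 to 0.1008 and Vdr -0.0579 to 0.1339.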
